A study of Nasonia vitripennis with 6 samples.

Results

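The dorsoventral axis of the embryo of Nasonia vitripennis, a parasitoid wasp, was studied here through loci whose transcripts were more abundant after loss of BMP ligand and whose mean level after loss of Toll stayed within set bounds around that of water. A locus was taken where its mean FPKM (fragments scaled by transcript length and by library depth) in BMP pRNAi was above 3 and at least 1.5 times the water mean, with both BMP libraries above both water libraries. Its mean in Toll pRNAi had to lie above the water mean divided by 1.5 and at or below 1.2 times the water mean. These conditions were met by 59 of 20033 loci. The loci of vnd and traf4, genes whose embryonic expression the study had already mapped, were set aside, which left 57 members. The table that pairs loci with genes was used in incomplete form, so the 57 may still hold mapped genes that could not be set aside. Because these values from all 6 libraries chose the members, the differences between the groups below are descriptions, with no test of the choice.

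In insects BMP ligands such as Dpp and Gbb act through serine/threonine kinase receptors and Smad proteins and specify dorsal fates, while the receptor Toll acts through the transcription factor Dorsal and specifies ventral fates. In Nasonia, BMP signalling also limits the extent of ventral fates, and embryos that lack it are ventralized. The known targets that rise without BMP are therefore genes of the mesoderm and the neighbouring ventral ectoderm, though not all mesoderm genes rise. Most of those that do need Toll for their expression. The 57 loci share the first property, with Toll means between 0.684 and 1.199 times water. After Toll pRNAi 2 of them were called lower (edgeR, adjusted over all loci), where 1.03% of all loci tested were. Fits with limma called none of them.

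Parental RNAi (pRNAi) was used, in which double-stranded RNA is injected into female pupae and the RNA of their offspring is read. The labels give about 2 micrograms of dsRNA, and controls received water. Pooled late blastoderm embryos, 4 to 7 h after egg lay, gave 6 poly-A libraries, each named here by its title, which joins the treatment and a number. They were TollA1611 and TollA2610, made with separate dsRNAs against TollA, h2o805 and h2o1704 from water injection, and dpp2610 and gbb11611. The last pair forms the BMP group, so each ligand gene has 1 library and a difference between dpp and gbb has no replicate. The water pools carry numbers that no knockdown pool carries, so for any comparison with water the number and the knockdown cannot be told apart. No strain is given in the labels, and in bulk RNA a change in the number of expressing cells and in RNA per cell cannot be told apart.

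Between 22754267 and 30590172 fragments were assigned to loci per library. The targeted gene TollA (Nasvi2EG005329) had 128 and 101 FPKM in h2o805 and h2o1704, and 1.23 and 4.92 in TollA1611 and TollA2610. The dpp gene (Nasvi2EG000703) had 17.0 and 18.1 FPKM in water, 7.03 in dpp2610 and 12.7 in gbb11611. The mesoderm gene twist (Nasvi2EG000292) stood at 37.0 and 40.3 FPKM in water, 79.0 and 87.8 in dpp2610 and gbb11611, and 1.33 and 2.93 in TollA1611 and TollA2610. The levels of TollA and dpp were lowest in the libraries labelled with them, and gbb, the target of gbb11611, was not analysed here. Over loci above 3 FPKM in any condition, the log2 ratio of the 2 libraries of a group had an SD of 0.16 for Toll, 0.23 for water and 0.27 for BMP.

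Of the 20033 loci, 6806 were above 3 FPKM in BMP pRNAi, 140 of these were at least 1.5 times the water mean, and 136 had no overlap between BMP and water libraries. In 16 of the 136 the Toll mean was at or below the water mean divided by 1.5, in 61 it was above 1.2 times water, and in 59 it lay between. Through the incomplete pairing table, 14 of the 16, none of the 61 and 2 of the 59 could be paired with a gene whose expression the study mapped, and further mapped genes may be among the unpaired loci. The members thus occupy the strip between ventral genes that fell without Toll and loci that were raised in both knockdowns. The same rule with the knockdowns exchanged found 32 loci raised by Toll pRNAi and not by BMP pRNAi.

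**Figure D1:**
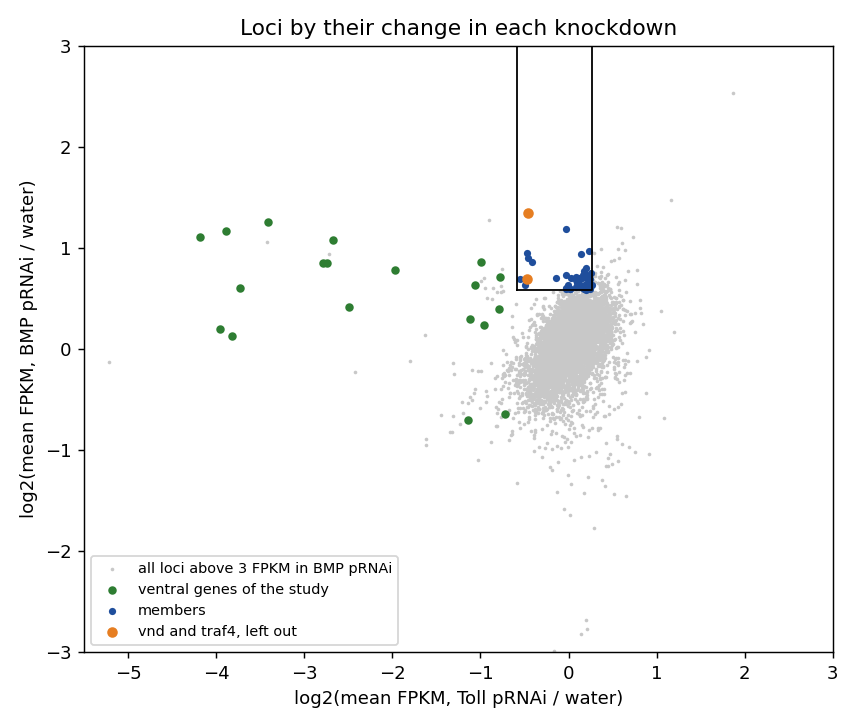
Each point is a locus above 3 FPKM in BMP pRNAi, with the log2 ratio of mean FPKM of Toll pRNAi to water on the x axis and of BMP pRNAi to water on the y axis (2 libraries per group). The 57 members (blue) lie in the lower part of the box of the rule, mostly toward its right side and above the cloud of all loci. The ventral genes of the study (green) lie to the left, and vnd and traf4 (orange) lie inside the box.

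The lists of mapped genes show which part of the dorsoventral network can meet the BMP conditions. The study chose these genes on the same libraries, so their directions are not independent evidence. Of 19 loci of ventral genes, 11 met the BMP conditions and all 11 had a Toll mean at or below water divided by 1.5, with a median Toll to water ratio of 0.178 for the list. Of 5 loci of lateral ventral genes, 4 met them, 2 with low Toll and 2 between the bounds. These last were vnd, a homeobox gene of the ventral neuroectoderm in Drosophila, and traf4, which encodes a TRAF family adaptor. Of 29 loci with lateral expression 1 met the BMP conditions, and of 30 dorsal or serosal loci none did, where the median BMP to water ratio was 0.372.

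The locus of vnd had 12.1 and 12.3 FPKM in h2o805 and h2o1704, 7.98 and 9.76 in TollA1611 and TollA2610, and 25.9 and 36.5 in dpp2610 and gbb11611. The locus of traf4 had 20.2 and 19.9 in water, 14.9 and 13.9 in TollA1611 and TollA2610, and 33.7 and 31.3 in dpp2610 and gbb11611. Both were thus lower in each Toll library than in each water library. The traf4 locus joins 2 gene identifiers, so its values cannot be given to 1 gene.

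A gene identifier of annotation 2.0 could be paired with 5 of the 57 members (8.77%). Over all 20033 loci it was 1799 (8.98%), and over the 6806 above 3 FPKM in BMP pRNAi it was 271. The pairing table used here is incomplete and lists loci with a called difference first, so whether a member has an identifier depends on its values, and the 5 are not a sample of the 57. The annotation entries used here hold no gene name or homolog for the 5, and their positions are those of genome assembly 1.0. For the other 52 only the locus numbers of the authors' assembly are known. No exon or UTR position was used here.

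Among the paired members the largest ratio belonged to Nasvi2EG010527 (scaffold 21, positions 1794956 to 1796166). Its FPKM was 98.2 in h2o805, 75.8 in h2o1704, 80.9 in TollA1611, 89.3 in TollA2610, 238 in dpp2610 and 158 in gbb11611. Toll and water libraries overlapped, and both BMP libraries stood above all 4 of them. The means were 87.0 ± 15.8 in water, 85.1 ± 5.98 in Toll pRNAi and 198 ± 56.8 in BMP pRNAi (SD, n = 2 each). The mean ratio to water was 2.28, made up of 2.74 for the dpp library and 1.82 for the gbb library, and on fragments the edgeR log2 fold change was 1.16 with a standard error of 0.19.

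The second abundant paired member, Nasvi2EG036227 (scaffold 4793, positions 2445 to 3026), had 118.5 and 117.5 FPKM in h2o805 and h2o1704 and 124.7 and 125.3 in TollA1611 and TollA2610. It had 222 in dpp2610 and 165 in gbb11611, again with both BMP libraries above the other 4. The gbb library alone stood 1.4 times above the water mean and did not reach the bound of 1.5, while the dpp library stood at 1.88 times.

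The other 3 paired members had a different shape, with every Toll library below every water library. The locus of Nasvi2EG010653 and Nasvi2EG010655 (scaffold 21, positions 2825136 to 2853420) had 19.2 and 20.0 FPKM in h2o805 and h2o1704, 13.3 and 14.97 in TollA1611 and TollA2610, and 37.3 and 38.6 in dpp2610 and gbb11611. The 3 groups did not overlap, and the mean ratios to water were 1.94 for BMP and 0.720 for Toll. Since 2 identifiers share the locus, it is uncertain which of them carries the change.

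Nasvi2EG022099 (scaffold 159, positions 196850 to 212887) had 3.41 and 3.21 FPKM in h2o805 and h2o1704, 2.29 and 2.4 in TollA1611 and TollA2610, and 4.97 and 5.32 in dpp2610 and gbb11611. Nasvi2EG024989 (scaffold 245, positions 151795 to 159543) had 2.88 and 3.23 in water, 2.03 and 2.15 in TollA1611 and TollA2610, and 4.88 and 5.01 in dpp2610 and gbb11611. In both, water lay between Toll below and BMP above, with BMP to water ratios of 1.55 and 1.62. The edgeR log2 fold changes of Toll pRNAi against water were -0.49 (standard error 0.10) for Nasvi2EG022099 and -0.60 (standard error 0.13) for Nasvi2EG024989.

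**Figure D2:**
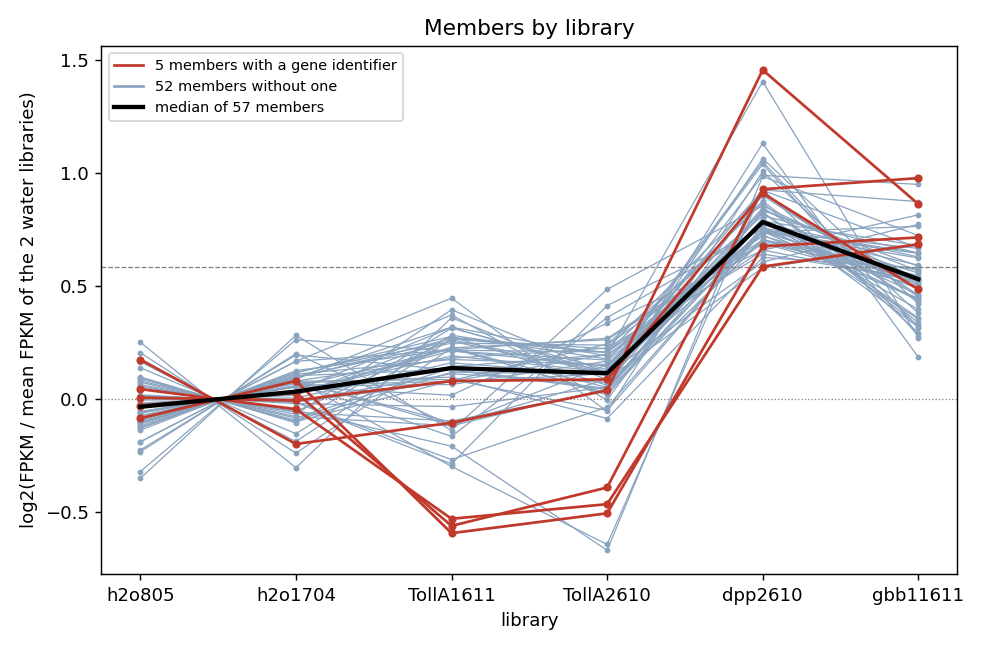
Each line is a member, and the y axis gives the log2 ratio of its FPKM in each of the 6 libraries on the x axis to its mean in the 2 water libraries. The median of the 57 (black) lies near 0 in water, slightly above it in Toll pRNAi, highest in dpp2610 and lower in gbb11611, and 3 of the 5 members with an identifier (red) dip in both Toll libraries.

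Of members without an identifier, the largest ratios were those of XLOC_010101 and XLOC_004812. XLOC_010101 had 4.39 and 2.99 FPKM in h2o805 and h2o1704, 4.73 and 3.91 in TollA1611 and TollA2610, and 7.31 and 7.11 in dpp2610 and gbb11611. XLOC_004812 had 6.17 and 6.73 in water, 6.81 and 7.39 in TollA1611 and TollA2610, 17.1 in dpp2610 and 7.79 in gbb11611. In the first both BMP libraries stood at a like height. In the second the gbb library was 1.21 times the water mean and the dpp library 2.65 times, so its mean ratio of 1.93 rested on dpp2610.

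The most abundant of the 57 members also lacked an identifier. Its FPKM was 197 in h2o805, 231 in h2o1704, 241 in TollA1611, 238 in TollA2610, 368 in dpp2610 and 281 in gbb11611. Both Toll libraries lay above both water libraries, and both BMP libraries above all of these, with mean ratios to water of 1.12 for Toll and 1.52 for BMP. Of the 6 members above 100 FPKM in BMP pRNAi, 2 have an identifier, and dpp2610 was above gbb11611 in each of the 6.

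Across the 57 members the difference from water was small, with little range. The ratio of BMP to water means ran from 1.502 to 2.28 with a median of 1.61, 28 members were under 1.6 and 1 was above 2. Mean FPKM in water ran from 1.66 to 214 with a median of 7.29, against 24.0 over the 6806 loci above 3 FPKM in BMP pRNAi. In BMP pRNAi 26 members were under 10 FPKM and 6 were above 100. The 3 members nearest to the bound had ratios of 1.502, 1.507 and 1.507, and the 3 loci that just missed it while meeting the other conditions had 1.498, 1.498 and 1.495.

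The Toll values of the members leaned to the upper side of the permitted range. The Toll to water ratio ran from 0.684 to 1.199 with a median of 1.10 (1.01 over the 6806 loci), and 46 of 57 members had a Toll mean above water. Both Toll libraries lay above both water libraries in 27 members (34.6% of the 6806 loci) and below both in 6 (29.6% of the 6806 loci). The rule bounded these ratios from both sides, and nothing is read from the shares. At the upper bound the members continued into the loci raised in both knockdowns: the 3 highest Toll ratios inside were 1.199, 1.194 and 1.185, and the 3 lowest outside were 1.204, 1.206 and 1.214.

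The 6 members with both Toll libraries below both water libraries differed in several measures from the other 51. This division was made after the values were seen and is given without a test. All 6 had both BMP libraries at least 1.5 times the water mean, against 14 of the 51. The 6 also had a higher median BMP to water ratio (1.72 against 1.59) and more fragments (median 373 against 208). A mean ratio further above 1.5 makes it easier for both libraries to reach 1.5, so these measures are not independent. The median ratio of dpp2610 to gbb11611 was 1.004 in the 6 (range 0.934 to 1.199) and 1.198 in the 51 (range 0.891 to 2.19). The 6 include 3 of the 5 members with an identifier. Of the other 3, the first had 4.35 and 4.91 FPKM in h2o805 and h2o1704, 3.76 and 2.96 in TollA1611 and TollA2610, and 8.78 and 8.47 in dpp2610 and gbb11611. The second had 1.71 and 1.603 in water, 1.44 and 1.04 in TollA1611 and TollA2610, and 3.28 and 2.74 in dpp2610 and gbb11611. The third had 9.37 and 9.20 in water, 7.71 and 9.06 in TollA1611 and TollA2610, and 15.5 and 14.7 in dpp2610 and gbb11611. In the third TollA2610 lay below h2o1704 by less than the water libraries differ, and in the first 2 the Toll means were 0.727 and 0.748 times water.

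Within the BMP group the members were not raised equally in the library for each ligand. The dpp library alone reached 1.5 times the water mean in 56 of 57 members and the gbb library alone in 21. Both did so in 20 members, against 58 of the 6806 loci, and the rule itself used these libraries. The dpp2610 level was above the gbb11611 level in 50 of 57 members, against 59.9% of the 6806 loci. The median dpp to gbb ratio was 1.19 in the members (0.891 to 2.19) and 1.04 over all these loci, and on scaled fragments it was 1.15 against 1.02. The lean was not particular to the members: of the 61 loci raised by BMP with Toll above 1.2 times water, 49 were higher in dpp2610, with a median ratio of 1.21. Summed over all loci, FPKM was 521168.8 in dpp2610 and 487501.9 in gbb11611, against 449213.6 and 473793.3 in h2o805 and h2o1704. Whether these sums have a part in the ratios was not tested. In 8 members (14.0%) the dpp library was at least 1.5 times the gbb library, and in none was gbb at least 1.5 times dpp, against 1.81% and 1.41% of the 6806 loci. With 1 library for each ligand gene, ligand, title number and library cannot be told apart.

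**Figure D3:**
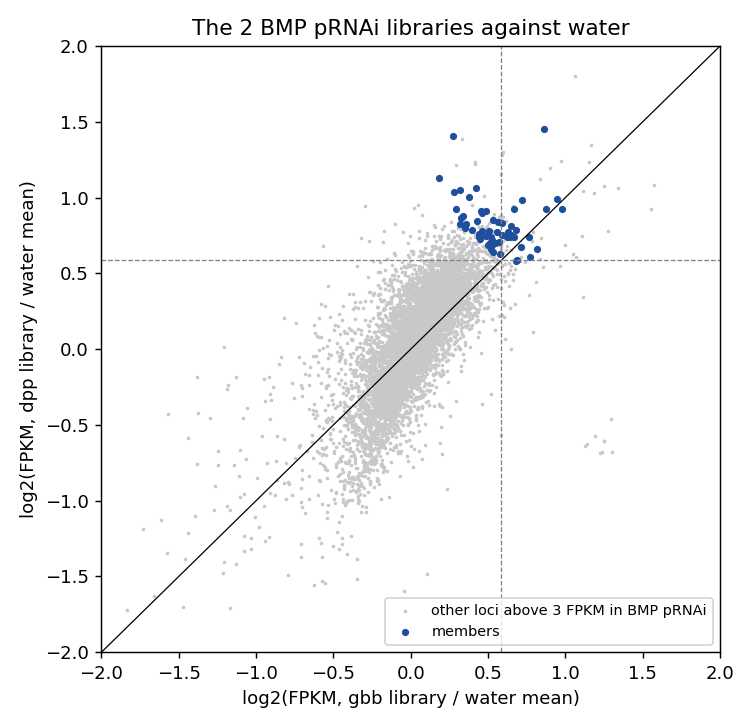
The log2 ratio of FPKM to the mean of the 2 water libraries is shown for the gbb library (x axis) and the dpp library (y axis), with the 57 members in blue, other loci above 3 FPKM in BMP pRNAi in grey, the line of equality and dashed lines at a ratio of 1.5; 6 grey loci lie outside the axes. Of the members, 50 lie above the line of equality, and 20 lie beyond both dashed lines.

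The knockdowns were also set against each other without water, within libraries that carry the same title number, although the labels do not say what the number marks. The ratio of dpp2610 to TollA2610 had a median of 1.63 over the members and was above 1 in all 57, against 4029 of the 6806 loci. The ratio of gbb11611 to TollA1611 had a median of 1.28 and was above 1 in 56, against 4180 of the 6806. Over the 6806 loci the medians were 1.06 and 1.04. For the 6 members with low Toll values the medians were 2.38 and 2.28, and for the other 51 they were 1.58 and 1.26. The 6 were set apart by those Toll values, so their higher ratios to Toll follow from the division. Both BMP libraries lay above both Toll libraries in 56 of 57 members, against 40.8% of the 6806 loci, and the rule itself pushed these values apart.

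Most members gave few fragments for their FPKM. The rule set no bound on this measure, but its denominator is the FPKM that chose the members. The shares below are therefore not independent of the rule. Fragments per FPKM rise with the transcript length that the authors' software assumed for a locus, and each value was divided by that of the median locus above 3 FPKM. The median of the members was 0.325, and 38 of 57 members (66.7%) lay under 0.5, against 21.6% of the 6806 loci. The 6 members with low Toll values had a median of 1.303 and the other 51 a median of 0.310. Loci raised in both knockdowns had a median of 0.436, loci raised by Toll pRNAi only 0.929, and the 16 loci raised by BMP and lowered by Toll 2.26. The abundant paired members stood at 0.252 for Nasvi2EG010527 and 0.226 for Nasvi2EG036227, and Nasvi2EG022099 at 3.44. Whether the short assumed length has a part in the ratios was not tested.

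**Figure D4:**
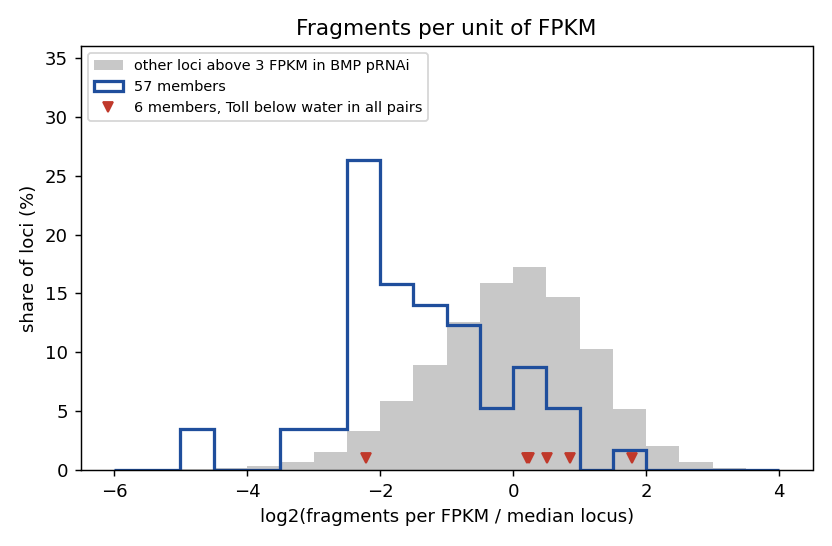
The x axis gives fragments per FPKM relative to the median locus on a log2 scale, and the y axis the share of loci in each bin, for the 57 members (blue outline) and the other loci above 3 FPKM in BMP pRNAi (grey). The members peak to the left of the other loci, and of the 6 members with low Toll values (red triangles, placed at a fixed height) 5 lie to the right of 0.

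The depth behind the members was modest. The mean over the 6 libraries was 28.2 to 3433 fragments with a median of 219, against 1438 for the 6806 loci. In 4 members (7.02%) every library had under 100 fragments, against 1.41% of the 6806 loci. The rule chose the members on the FPKM of these same libraries, which largely fixed in advance where intervals of their counts lie. The exact 95% interval of the BMP to water ratio of summed fragments, which covers counting error only, lay above 1 in all 57 members and above 1.5 in 7. For Nasvi2EG010527 it ran from 2.08 to 2.29 and for XLOC_004812 from 1.53 to 2.30. Read as TMM-scaled fragments in place of FPKM, the ratio was under 1.5 in 12 members, and its median was 1.54 (1.25 to 2.23). The traf4 locus had a ratio of 1.62 by FPKM and 1.31 by fragments.

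All 57 members were among the 10241 loci with enough fragments for the edgeR fit. At an adjusted p under 0.05 (edgeR quasi-likelihood test, Benjamini-Hochberg over all loci), 22 of 57 were higher in BMP pRNAi than in water, where 2.06% of loci were called in that direction. The median log2 fold change was 0.63 in the members and 0.01 over all loci tested. Fits with 1 library left out gave other counts: 1 was called without h2o805, 2 without h2o1704, 6 without either Toll library, 10 without dpp2610 and 43 without gbb11611. Where a water or BMP library is left out, its group has 1 sample, which the fit assumes to vary like the other groups. The edgeR fit with no filter on low counts called 49, and with only the BMP and water libraries 6. An unfiltered limma fit of log2(FPKM + 1) called 2, one restricted to loci above 1 FPKM called 34, and an unfiltered one with a pseudocount of 0.1 called none, while 50 passed an unadjusted p under 0.05. The rule used the same contrast, so the count says how many members cleared the spread across libraries and nothing about the choice. For the other fits and for unadjusted p no share of all loci is given. Their counts are therefore not read as a result about the members.

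The bounds of the rule put mean FPKM in BMP pRNAi above that in Toll pRNAi in every member (lowest ratio 1.28), so the direction was set in advance. Between the knockdowns, 13 of 57 members were called higher in BMP pRNAi than in Toll pRNAi (1.06% of all loci in that direction), with a median log2 fold change of 0.50. That count was 7 without either water library, 5 without TollA1611, 4 without TollA2610, 8 without dpp2610 and 34 without gbb11611. It was 32 with no filter on low counts, 7 with only the Toll and BMP libraries, and 23 in that smaller fit with the title number as a block. The unfiltered limma fits called 6 and 4 with pseudocounts of 1 and 0.1. Here too no share of all loci is given beside the other fits or unadjusted p, and nothing about the members is read from those counts. All 5 members with an identifier were among the 13, but loci with a called difference were listed first in the pairing, so this is not independent of the calls. Between Toll pRNAi and water, 2 members were called lower (1.03% of all loci) and none higher (2.60% of all loci), and 4 were lower and 1 higher at an unadjusted p under 0.05. The 2 were Nasvi2EG022099 and Nasvi2EG024989. Neither remained called without h2o805, h2o1704, TollA1611 or TollA2610, where no member was called; DESeq2 called 2 lower and limma on log2(FPKM + 1) none.

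Libraries that did not choose a locus can show whether its BMP to water ratio recurs, and the Toll library not used was not read. Loci were therefore chosen with dpp2610, h2o805 and TollA2610 alone by the same bounds, and read in gbb11611 and h2o1704. Of 306 loci chosen, 17 (5.56%) were at least 1.5 times higher in gbb11611 than in h2o1704, against 1.52% of 6773 loci above 3 FPKM in gbb11611. The median ratio in the libraries not used was 1.13 for the chosen loci and 1.03 for the 6773, so a level of 1.5 times recurred in few of them.

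With h2o1704 choosing and h2o805 read, 22 of 208 chosen loci (10.6%) passed, against 2.14% of all loci. With gbb11611 choosing together with TollA1611, fewer loci were chosen and a larger share of them passed. With h2o805 choosing, 14 of 34 (41.2%) were also at least 1.5 times higher in dpp2610 than in h2o1704, against 5.34% of all loci. With h2o1704 choosing it was 12 of 31 (38.7%), against 9.48%. Members made up 38 of the 306, 39 of the 208, 17 of the 34 and 11 of the 31 chosen loci. With dpp2610 choosing, the shares thus mostly describe loci that are not members. Fragment numbers were not matched in any pairing. The chosen share was above that of all loci in the 4 pairings, and the share itself ran from 5.56% to 41.2%. The pairings reuse the same libraries, and chosen loci were not matched to all loci in fragments. The excess is therefore not read as support for the choice of members. No p is given, since loci of the same libraries are not independent samples.

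**Figure D5:**
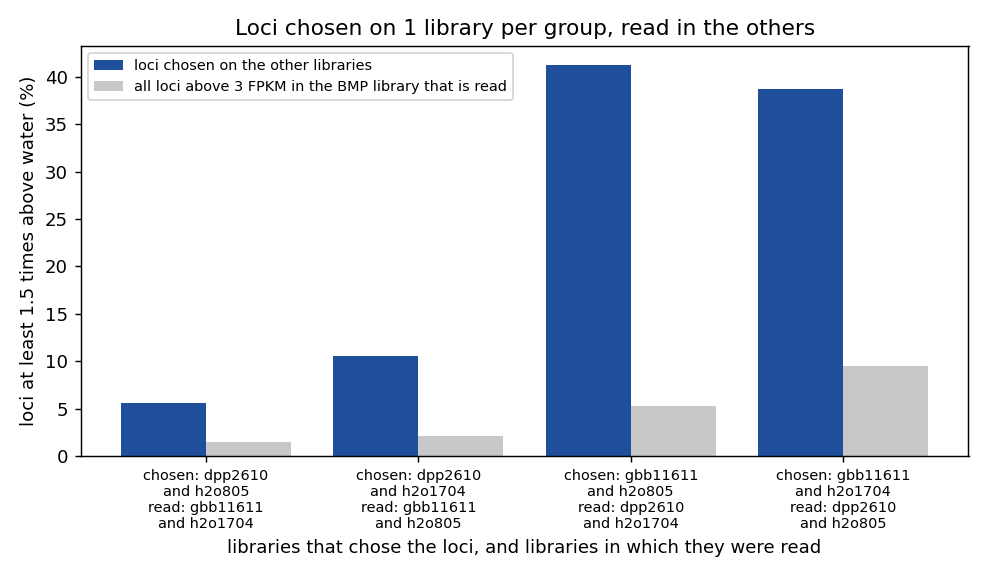
Bars give the share of loci, in percent on the y axis, at least 1.5 times higher in a BMP library than in a water library that had no part in choosing them, for loci chosen on 1 BMP, 1 water and 1 Toll library (blue) and for all loci above 3 FPKM in the BMP library read (grey), in the 4 pairings of the x axis. The blue bars run from 5.56% with dpp choosing to 41.2% with gbb choosing, and each is higher than its grey neighbour.

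The number of members followed the bounds closely. A BMP to water ratio of 1.3 in place of 1.5 gave 477 loci and a ratio of 2 gave 1, and a Toll bound of 1.0 or 1.5 in place of 1.2 gave 11 or 108. Without gbb11611 the rule took 229 loci and without dpp2610 it took 30, of which 18 were members. Without h2o805 it took 68 and without h2o1704 it took 88, of which 33 and 35 were members. Scaled fragments in place of FPKM gave 45 loci, 43 of them members.

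The members were spread over the locus numbers of the assembly, which mostly follow the scaffolds (85.1% of 1068 consecutive pairs in the pairing table share a scaffold). Among the 57, 4 form 2 pairs of consecutive numbers. In 1 pair the FPKM in h2o805 and h2o1704 was 31.2 and 27.1 for one locus and 97.7 and 100.6 for its neighbour, with BMP to water ratios of 1.66 and 1.53. In the other pair the ratios were 1.66 and 1.55. The scaffolds of these 4 loci were not analysed here. Members XLOC_005033 and XLOC_005074 had 798 and 901 fragments in h2o805, 873 and 986 in TollA1611, and 1380 and 1567 in dpp2610. Their fragments kept nearly the same proportion in all 6 libraries. Whether the loci share reads was not tested, so the 57 members may not all be distinct.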

How the data were processed

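Poly-A RNA of pooled embryos was sequenced in 6 libraries, 2 each for water, Toll pRNAi and BMP pRNAi. Per the labels the authors used TopHat2 2.0.3 and Cufflinks 2.0.2, with annotation 2.0 on assembly 1.0, as the study's methods state. The authors deposited, per locus and library, expected counts of fragments without scaling, and the authors' FPKM, which is scaled for depth and assumed transcript length. The ratio of FPKM can differ from that of fragments where a locus has several transcripts. Table replicates were matched to libraries by the order of the authors' command; 0 entries were unmatched. Columns of the authors' own comparisons, in other tables, were not used. Gene identifiers came from an incomplete table of the study.

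Expected counts, rounded, went into edgeR 4.0.16 (R 4.3.3; quasi-likelihood test, TMM scaling, default filter), a mean per group and all 6 libraries, with Benjamini-Hochberg adjustment over 10241 loci and a threshold of 0.05. Standard errors are the log2 fold change divided by the root of F. The fit was tested on simulated data. With 2 libraries per group no exact test over samples can reach 0.05, and where the labels do not name separate cultures p measures only the spread between these pools. Alternatives were DESeq2 1.42.0, RLE factors, other filters, limma 3.58.1 on log2(FPKM + 1) and log2(FPKM + 0.1), each library left out, and other bounds of the rule. Counting intervals are exact binomial at 95%. Named were members with an identifier, 2 without one, the loci nearest the bounds as values, TollA, dpp and twist as checks, and vnd and traf4. The members and lists were chosen with earlier results of these data known. Tables were made with Python 3.11.15.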

Additional observations from a re-analysis of the deposited data

How the results depend on the processing

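In place of the 22 members called higher in BMP pRNAi than in water, 49 were called with no filter on low counts, 6 with only the 2 groups compared, 2 with limma on log2(FPKM + 1), 0 with limma on log2(FPKM + 0.1) and 34 with limma on loci above 1 FPKM. Leaving out 1 library gave 1 to 43. In place of the 2 called between Toll pRNAi and water, 0 were called in each limma fit, and leaving out 1 library gave 0 to 3. In place of the 13 called between the knockdowns, 32 were called with no filter, 7 with only the 2 groups compared, 6 and 4 in the limma fits with pseudocounts of 1 and 0.1 and no filter, and 23 with the replicate block by title number. Leaving out 1 library gave 4 to 34. The title number was not shown to pair the libraries: the deviations of same-numbered libraries correlated at 0.13 over 10241 loci, with 2 pairs only. The share of all loci called is given for the main fit only, so these shifts are not read as a trait of the members. The cause of these shifts was not tested.

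The number of members was 31 at a floor of 10 FPKM, 477 and 1 at ratios of 1.3 and 2, 11 and 108 at Toll bounds of 1.0 and 1.5, and 30 to 229 with 1 library left out. It was within 1.5 times of 57 at a floor of 1 FPKM, with overlap allowed, on scaled fragments and with status OK only. The share of loci that recurred was 10.6%, 41.2% and 38.7% in the other pairings. The median log2 fold change of the members was 0.62 with RLE and 0.68 with library size only, which moved the median of all loci to 0.06. No named member changed sign. Of their 98 alternative values, 24 lost and 7 gained a call. With 2 libraries per group and 219 fragments in the median member, ratios near 1.5 cannot be placed firmly on either side of the bound.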

Other observations

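The 61 loci raised by BMP pRNAi with a Toll mean above 1.2 times water had a median BMP to water ratio of 1.61 and a median Toll to water ratio of 1.31. In 49 of them dpp2610 was above gbb11611, with a median ratio of 1.21, and 24 had both BMP libraries at least 1.5 times the water mean. In the 16 loci raised by BMP and low in Toll, dpp2610 was above gbb11611 in 2, with a median ratio of 0.825, and 12 had both BMP libraries at least 1.5 times the water mean.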
